A study of Mus musculus with 12 samples.

Results

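The genes described here are 9 genes known to respond to TCDD, the most potent of the dioxins, in liver, outside the Cyp1, Tiparp and NRF2 groups. They are Xdh, Pmm1, Htatip2, Slc7a5, Gadd45b, Notch1, Scara5, Lgals3 and Fmo2. These genes and the lists below were chosen with earlier results of these data known, so their counts beside all genes are descriptions only. Every probe set (the group of array probes that reports a transcript) whose annotation named one of these symbols alone was taken, which gave 17 of 45101 probe sets and 8 of 18193 genes. The annotation used here listed no probe set under Htatip2, so that gene was not analysed here. Of the other 8 genes, 5 had several probe sets and 3 had 1 each. A gene was represented by its probe set of highest mean intensity, and the dimmer ones are given beside it.

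The arrays held RNA of primary mouse hepatocytes, kept for 48 h in culture and then given TCDD at 10 nM or the vehicle DMSO for 6 h. There were 12 Affymetrix arrays, 3 in each of 4 groups, each from a different mouse according to the design text. Wild type hepatocytes were from C57BL6/J animals and have the aryl hydrocarbon receptor (AHR) of the mouse. Human AHR hepatocytes were from the strain B6.Cg-Ahrtm3.1Bra with the transgenes Alb-cre and Ttr-AHR. In it a floxed mouse Ahr allele is removed by a Cre recombinase under the albumin promoter, and human AHR is made from the transthyretin promoter. Both promoters act mainly in hepatocytes, so other liver cells of these mice keep the mouse gene and are not a model of the human receptor. Age and sex were not given in the sources used here.

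AHR is a receptor that stays in the cytoplasm until a ligand such as TCDD binds it. It then enters the nucleus, pairs with ARNT and binds DNA at a short core sequence, GCGTG, near genes such as Cyp1a1 and Tiparp. The 9 genes have varied functions. They act in purine breakdown (Xdh), sugar activation for glycoproteins (Pmm1), amino acid uptake (Slc7a5), stress signalling (Gadd45b) and cell fate signalling (Notch1). The others act in ferritin uptake (Scara5), the restraint of growth (Htatip2), lectin functions (Lgals3) and the oxygenation of foreign compounds (Fmo2).

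The upstream sequences of the members whose TCDD arrays all lay above their vehicle arrays in at least 1 genotype are shown for the receptor core they may hold. RefSeq promoter windows on GRCm38.p6 (300 bases, 250 before and 50 after the start of a transcript) were listed for 6 of the 9 genes, and for Xdh, Slc7a5 and Scara5 none was listed. The 250 bases before the start are printed 5′ to 3′ on the strand of the gene, with each match to GCGTG, or to its reverse complement CACGC, in capitals. Pmm1 is at chr15:81960931-81961180 on the minus strand, Gadd45b at chr10:80929841-80930090 on the plus strand and Notch1 at chr2:26503823-26504072 on the minus strand.
Pmm1: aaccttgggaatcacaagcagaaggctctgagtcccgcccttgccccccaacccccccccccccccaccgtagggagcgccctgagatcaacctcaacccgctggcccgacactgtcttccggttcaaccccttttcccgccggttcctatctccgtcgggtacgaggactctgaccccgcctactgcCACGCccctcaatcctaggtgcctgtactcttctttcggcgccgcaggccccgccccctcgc
Gadd45b: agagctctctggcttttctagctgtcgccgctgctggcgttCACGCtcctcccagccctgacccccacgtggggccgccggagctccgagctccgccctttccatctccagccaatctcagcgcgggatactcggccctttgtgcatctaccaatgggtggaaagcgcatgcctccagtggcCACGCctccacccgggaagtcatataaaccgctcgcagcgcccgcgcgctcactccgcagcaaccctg
Notch1: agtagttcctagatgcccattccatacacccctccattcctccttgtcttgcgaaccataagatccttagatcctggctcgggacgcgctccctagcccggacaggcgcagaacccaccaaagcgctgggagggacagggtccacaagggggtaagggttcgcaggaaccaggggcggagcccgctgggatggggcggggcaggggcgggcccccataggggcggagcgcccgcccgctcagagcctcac

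The Pmm1 window held 1 core, which began 62 bases before the start. The Gadd45b window held 2 cores, at 209 and 68 bases before it. The Notch1 window held 1 core, 32 bases after the start and so outside the stretch printed. Over all 6 genes, 5 of 8 listed windows held the core on either strand, against 32.4% of the 32851 windows of the same length. Windows were also searched on both strands for the longer form TNGCGTG, which contains the core, and for the antioxidant response element TGACNNNGC. The longer form was in none of the 8 windows (0) and in 5.07% of all windows. The antioxidant element was in the Pmm1 window and in both Htatip2 windows, and in 12.4% of all windows. A match describes these letters alone and is no evidence of binding.

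Across the whole series, arrays of a group correlated with r from 0.958 to 0.985 over genes, and the median intensity lay between 16.5 and 23.5. Intensities are linear values, each array rescaled to a mean of 150 after trimming 2% at each end, because the deposited wild type TCDD arrays stood at 500 and the other 9 at 150. In wild type, treatment and deposited scaling therefore cannot be told apart beyond that factor. Of the 12 listed hepatocyte markers 11 were measured, and their summed intensity lay between 62420 and 84840 in every array. Most of it came from Alb, Ttr, Apoa1 and Apoa2. Pck1 and Ass1, chosen after their values were seen, were the dimmest, with mean intensities of 33.6 and 27.9. Xist, the transcript of the silenced X chromosome of female cells, read 3085 and 2952 in the wild type vehicle and TCDD arrays numbered 2, and at most 29.3 in the other arrays. The wild type arrays numbered 2 thus carry the pattern of female cells. Without both, the wild type changes with TCDD described below were 0.58 for Xdh, 0.62 for Pmm1, 0.61 for Notch1 and -0.28 for Lgals3, on the log2 scale. As the reference for a receptor response, Tiparp, an AHR-induced ADP-ribosyltransferase, had log2 changes with TCDD of 1.30 (wild type) and 1.37 (human AHR). Cyp1a1, the classical AHR-induced cytochrome, stood at 3.00 and 6.09, and its wild type TCDD arrays read 125, 2518 and 64.9.

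The question of the TCDD comparisons is whether these genes respond to 6 h of TCDD through the mouse or the human receptor. Xdh and Pmm1 lay above vehicle by 0.42 to 0.65 on the log2 scale in each genotype (16 was added to each intensity before the logarithm), and Notch1 by 0.30 to 0.46. In wild type, the intensities of Xdh, Gadd45b, Slc7a5, Lgals3, Fmo2 and Scara5 ranged more widely within a group than between the group means. Xdh ran from 567 to 1143 under TCDD there, with group means of 519.7 (vehicle) and 841 (TCDD). Lgals3 lay below vehicle in wild type and slightly above it in human AHR cells, and Scara5 was dimmer than the median probe set of every array. None of the 8 measured members (0) passed limma's test after Benjamini-Hochberg adjustment over all 18193 genes, in either genotype, for the mean of the genotypes or for their difference. With the replicate numbers as a block within genotype, 1 member, Xdh, passed for the mean of the genotypes.
Over all genes, 0.0055% passed in wild type (1 gene, Tiparp), 0.022% in human AHR cells and 0.022% for the mean of the genotypes (4 genes each, Tiparp, Cyp1a1, Rab30 and B3galnt2). SAM, the test named in the design text, called 0 of 8 members in each genotype at a false discovery rate of 5%. Of all 18193 genes it called 0 in wild type and 7 in human AHR cells. At an unadjusted limma p under 0.05 there were 4 of 8 members in wild type (4.18% of all genes), 2 of 8 in human AHR cells (2.9%) and 3 of 8 for the mean of the genotypes (3.56%). In wild type 3 of these were higher under TCDD (3% of all genes) and 1, Lgals3, was lower. Those in human AHR cells were all higher (1.43% of all genes), as were those for the mean (2.19%). Groups without overlap, TCDD above vehicle, were seen for 2 of 8 members in wild type, Pmm1 and Notch1 (6.19% of all genes), and for 2 of 8 in human AHR cells, Xdh and Gadd45b (3.35%). All lay below for 0 members in wild type (2.81%) and for 1 in human AHR cells, Slc7a5 (3.85%). The 8 members had a median log2 change of 0.37 in wild type, where all genes had 0.03, and of 0.20 with the human receptor, where all genes had -0.01. Their log2 change was above 0 in 6 of 8 in wild type (55.7% of all genes), 5 of 8 in human AHR cells (47%) and 5 of 8 for the mean of the genotypes (51.9%). For the difference of the responses, human AHR minus wild type, 0 of 8 had an unadjusted limma p under 0.05 (3.15% of all genes, 0.934% with the higher value in human AHR cells), and 1 of 8, Lgals3, was above 0 (44.1%). In that comparison 0% of all genes passed after adjustment, with 573 at an unadjusted p under 0.05.

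**Figure D1:**
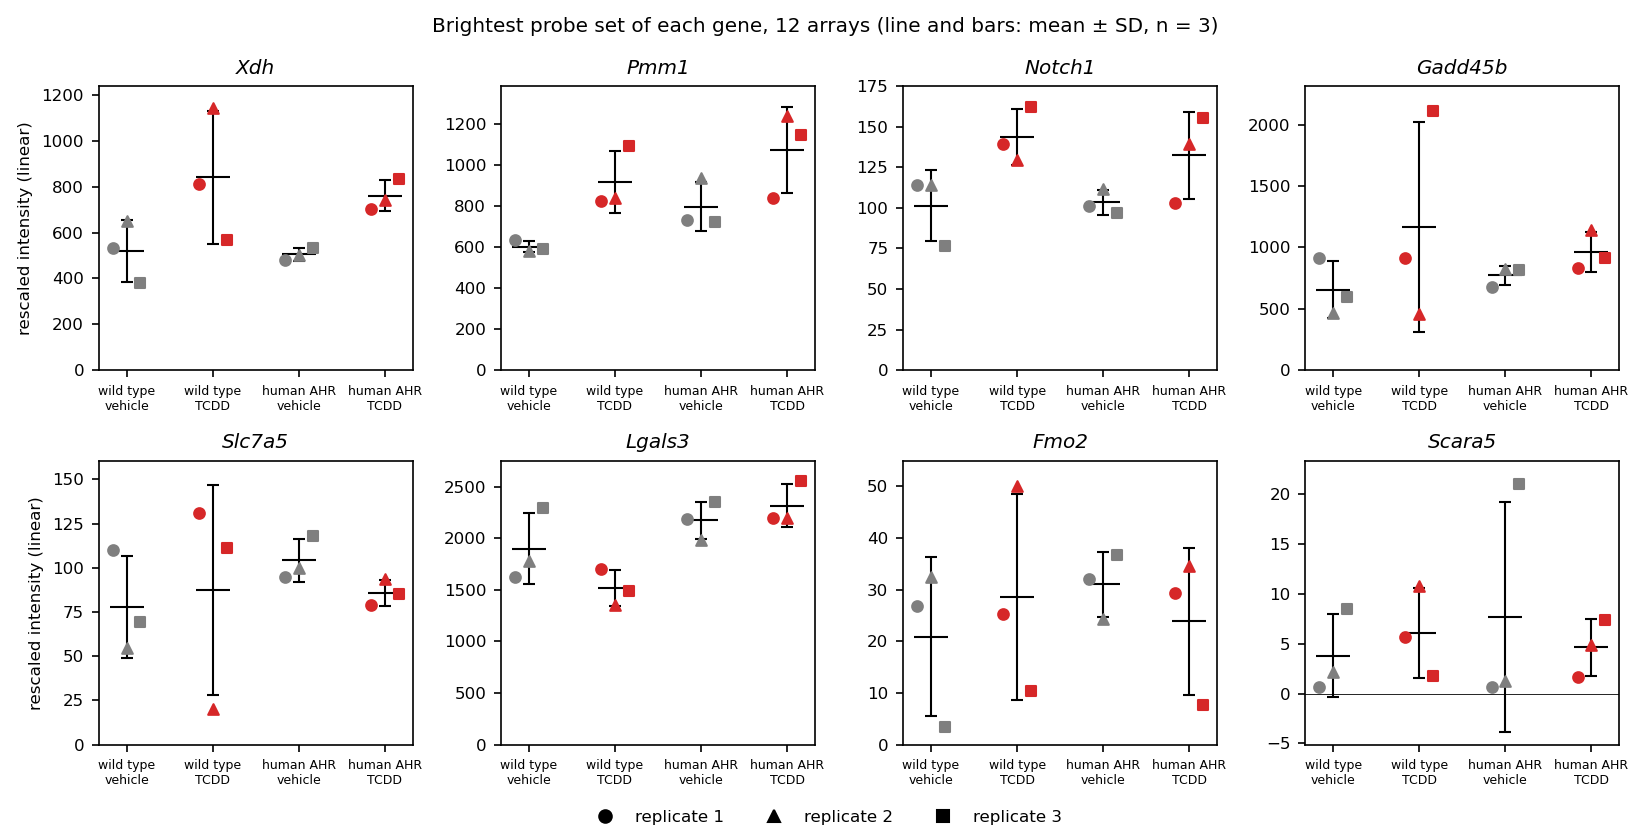
Rescaled intensity on a linear axis of the brightest probe set of 8 genes in the 12 arrays, with marker shape giving the replicate number, grey for vehicle and red for TCDD, and the line and bars giving mean ± SD of 3 arrays. Xdh and Pmm1 are higher under TCDD in both genotypes, Gadd45b has a lone high array at 2117 in wild type TCDD, and Fmo2 and Scara5 stay under 51 in every array.

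Xdh encodes xanthine dehydrogenase, which oxidises hypoxanthine to xanthine and on to uric acid and is counted among the liver genes induced by dioxin. Its probe set, 1451006_at, read 531, 649 and 379 in wild type vehicle arrays and 813, 1143 and 567 in wild type TCDD arrays, in the order of replicate numbers. It read 481, 501 and 534 in human AHR vehicle arrays and 703, 744 and 835 in human AHR TCDD arrays. The human AHR groups did not overlap, while in wild type the TCDD array numbered 3 lay below the vehicle array numbered 2. The group means were 519.7 ± 135 and 841 ± 289 in wild type (SD, n = 3) and 505 ± 27.1 and 761 ± 67.4 in human AHR cells.
The log2 change was 0.65 in wild type (standard error 0.23, 95% confidence interval 0.17 to 1.14, limma adjusted p = 0.966). It was 0.57 in human AHR cells (standard error 0.23, interval 0.08 to 1.06, limma adjusted p = 1). The mean of the genotypes was 0.61, a 1.53-fold higher level (interval 0.27 to 0.96, unadjusted p = 0.00202, limma adjusted p = 0.872), and all 6 TCDD arrays lay above the vehicle mean of their genotype. The 6 differences between same-numbered TCDD and vehicle arrays ran from 0.53 to 0.80 for Xdh. Those of Pmm1 (0.19 to 0.86) and Notch1 (0.02 to 0.95) were also above 0 in 6 of 6, and those of the other members in 2 to 5 of 6. With the replicate number as a block within genotype Xdh passed for the mean of the genotypes (limma adjusted p = 0.0181), though not with a block over both genotypes (adjusted p = 0.98). The numbers met the pairing check in human AHR cells and not in wild type. Within each genotype the block gave Xdh a limma adjusted p of 0.241 and 0.284, in wild type and human AHR cells. In the main fit the Xdh mean of the genotypes ranked 33 of 18193 genes by size of increase and 37 by p. Without wild type TCDD replicate 2, the highest array, the wild type change of Xdh was 0.41, and without wild type TCDD replicate 3, the lowest of its group, it was 0.90. The difference between the genotypes was -0.08 (interval -0.77 to 0.61), and under vehicle the genotypes differed by -0.01 (interval -0.50 to 0.48). The order of the group means was human AHR vehicle, wild type vehicle, human AHR TCDD and wild type TCDD, and the neighbours under the same treatment overlapped.

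Around Xdh in purine breakdown and salvage, 15 of 15 listed genes were measured and 0 passed in any TCDD comparison. Their median log2 change was -0.13 in wild type and -0.03 in human AHR cells, with 4 and 6 of the 15 above vehicle. The genes of smallest p for the mean of the genotypes were Aox3, an aldehyde oxidase related to Xdh (0.73 in wild type and -0.03 in human AHR cells), Nt5c2, a nucleotidase (-0.38 and 0.05), and Ada, the adenosine deaminase (-0.13 and -0.19). Their limma adjusted p was 0.966 or higher in each genotype.

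Pmm1 encodes a phosphomannomutase, which turns mannose 6-phosphate into mannose 1-phosphate, the precursor of the GDP-mannose used to build glycans. Its brighter probe set, 1424167_a_at, read 635, 580.5 and 593 in wild type vehicle arrays and 826, 839 and 1093 under TCDD. In human AHR cells it read 734, 936 and 723 under vehicle and 840.1, 1239 and 1149 under TCDD. The wild type groups did not overlap, and in human AHR cells the vehicle array numbered 2 lay above the TCDD array numbered 1. The means were 603 ± 28.3 and 919 ± 151 in wild type (SD, n = 3), and 798 ± 120 and 1076 ± 209 in human AHR cells.
The log2 change was 0.59 in wild type (standard error 0.17, interval 0.23 to 0.94, limma adjusted p = 0.966) and 0.42 in human AHR cells (interval 0.06 to 0.77, limma adjusted p = 1). The mean of the genotypes was 0.50, or 1.41-fold (interval 0.25 to 0.75, unadjusted p = 0.000908, limma adjusted p = 0.826), with all 6 TCDD arrays above the vehicle mean of their genotype. By p this ranked 20 of 18193 genes, and by size of increase 109. The genotypes differed in this response by -0.17 (interval -0.68 to 0.34).
The other Pmm1 probe set, 1430780_a_at, read 475, 376 and 392.5 in wild type vehicle arrays and 587, 541 and 628 under TCDD. It read 424, 552 and 467 in human AHR vehicle arrays and 587, 865 and 645 under TCDD. On this probe set the groups did not overlap in either genotype, and the log2 changes were 0.49 and 0.51. The probe sets correlated over the 12 arrays with Pearson r = 0.927 and Spearman rho = 0.937, and both give the same direction in each genotype.
Under vehicle, Pmm1 was the 1 member whose human AHR arrays all lay above the wild type arrays (6.28% of all genes), with a log2 difference of 0.39 (interval 0.03 to 0.75, limma adjusted p = 0.965). The dimmer probe set had 0.21 there, and its groups overlapped. Over all genes 0.011% were called between the genotypes under vehicle (2 genes, Cyp1a2 and Adi1), and 0 of 8 members. There 7 of 8 members were above 0 (55.1%), 0 members had all human AHR arrays below wild type (4.44%), and 1 member, Pmm1, was at an unadjusted limma p under 0.05 (4.26% of all genes).

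Among the 10 listed genes of mannose activation other than Pmm1, 10 were measured and 0 passed, with medians of -0.03 (wild type) and 0.06 (human AHR). Dpm3, a subunit of dolichol-phosphate mannose synthase, stood at 0.38 and 0.51 on a mean intensity of 18.5, which is near the array medians. Alg3, a mannosyltransferase, stood at 0.26 and 0.12, and Gmppb, which makes GDP-mannose, at -0.43 and 0.03.

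Notch1 encodes a cell surface receptor whose intracellular part is cut free by ligand binding and acts with RBPJ on target genes. Its brighter probe set, 1418634_at, read 114, 114 and 76.3 in wild type vehicle arrays and 139, 129 and 163 under TCDD. In human AHR cells it read 101, 112 and 97.2 under vehicle and 103, 139 and 155.5 under TCDD. The wild type groups did not overlap, while the human AHR TCDD array numbered 1 lay within the vehicle range. The log2 change was 0.46 in wild type (interval 0.03 to 0.88) and 0.30 in human AHR cells (interval -0.12 to 0.73), with limma adjusted p of 0.966 and 1. The mean of the genotypes was 0.38 (interval 0.08 to 0.68, unadjusted p = 0.0172, limma adjusted p = 0.997).
Without wild type vehicle replicate 3, the lowest array, the wild type change of Notch1 was 0.29. The human AHR change of Notch1 was 0.45 without human AHR TCDD replicate 1 and 0.19 without human AHR TCDD replicate 3, and it was 0.14 with the mean over probe sets. The dimmer Notch1 probe set, 1418633_at, did not follow. It had log2 changes of 0.18 (wild type) and -0.02 (human AHR), and correlated with the brighter one over the 12 arrays with r = 0.168 and rho = 0.021. Its wild type vehicle arrays read 61.9, 49.9 and 45.4 and its wild type TCDD arrays 69.4, 73.0 and 44.4, so the groups overlapped. The values of Notch1 therefore depend on which probe set stands for the gene.

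Of the other Notch pathway genes, 17 of 18 were measured and 0 passed. In wild type 13 of the 17 lay above vehicle, with a median of 0.25, and in human AHR cells 7 of 17, with a median of -0.08. Nrarp, a feedback regulator of Notch signalling, stood at 0.40 and 0.49 on a mean intensity of 13.3. Hes1, a target that is also listed among AHR targets, stood at 0.36 and 0.12, and Rbpj, the DNA-binding partner, at 0.28 and 0.07. Endothelial cells and bile duct cells also express Notch1. Of the 11 endothelial markers 7 averaged below the mean array median, and their summed intensity ran from 179.8 to 230.8 over the wild type arrays and from 197.5 to 378.1 over the human AHR arrays. Of the 8 measured cholangiocyte markers 5 averaged below it, and most of their sum was Krt19. That sum ran from 797.7 to 948.3 in wild type vehicle arrays and from 622.2 to 716.6 under TCDD, and from 575.2 to 1374 and 561.4 to 1159 in human AHR cells. Their part in the Notch1 values was not tested.

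**Figure D2:**
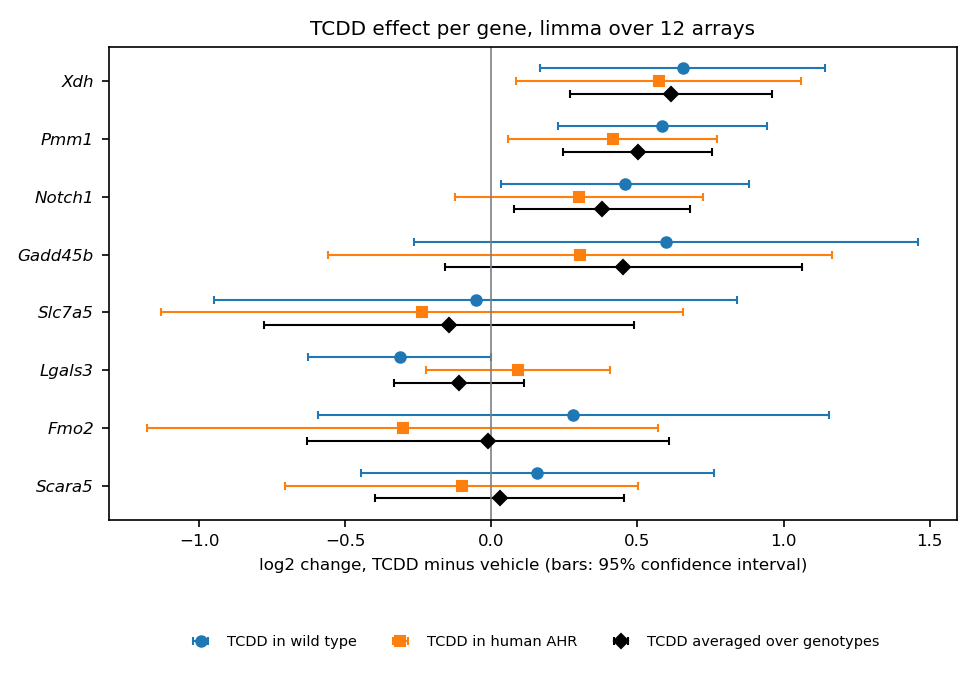
Log2 change of TCDD against vehicle (horizontal axis) with 95% confidence intervals from limma for 8 genes, for each genotype and for the mean of both. The intervals of Xdh and Pmm1 lie above 0 in all 3 comparisons, and those of Gadd45b, Slc7a5, Fmo2 and Scara5 span 0 in all 3.

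Gadd45b encodes a stress-induced protein that activates p38 and JNK kinase signalling. Its brightest probe set, 1450971_at, read 910.2, 465 and 594 in wild type vehicle arrays and 918, 458 and 2117 under TCDD. In human AHR cells it read 679.5, 822 and 815 under vehicle and 831, 1141 and 913 under TCDD. Human AHR TCDD arrays thus all lay above the vehicle arrays, by a narrow gap, while in wild type the array numbered 3 stood far above the other TCDD arrays. For Gadd45b the log2 change was 0.60 in wild type (interval -0.27 to 1.46, limma adjusted p = 0.966) and 0.30 in human AHR cells (interval -0.56 to 1.17, limma adjusted p = 1).
The wild type arrays numbered 1 and 2 read nearly the same under both treatments, and the change rests on the array numbered 3. Without wild type TCDD replicate 3 the wild type change of Gadd45b was 0.04, and without wild type TCDD replicate 2 it was 1.12. It was 0.38 without wild type vehicle replicate 2, and 0.91 without both wild type arrays numbered 2. The probe set 1449773_s_at had the same pattern, with log2 changes of 0.65 and 0.39 and a correlation with the brightest of r = 0.966. The dimmest, 1420197_at, had changes of 0.11 and 0.01 and stayed between 37.9 and 60.9 in all arrays.

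Of 12 listed Gadd45 relatives and stress or p53 targets, 12 were measured and 0 passed, with medians of 0.15 (wild type) and -0.05 (human AHR). Wild type TCDD replicate 3 was the highest of all 12 arrays for 6 of these 12 genes and the lowest for 1, and lay within the range of the others for 5. Over all genes it was the highest array for 17.3% and the lowest for 14.9%. Ppp1r15a, a phosphatase subunit of the integrated stress response, read 2628 in wild type TCDD replicate 3 and between 459.7 and 1786 in the other 11 arrays. Gadd45a, Gadd45g and Ddit3, chosen after their values were seen, read 1809, 652.5 and 1578 in that array, each above the other 11. Btg2, a p53 target that restrains growth, was lowest in that array, at 931, and had a wild type log2 change of -0.60. Mdm2, which targets p53 for breakdown, read 424 there, within its range, and stood at 0.02 in wild type and -0.18 in human AHR cells. The part of this array's state in the Gadd45b value was not tested. The wild type arrays numbered 2, vehicle and TCDD, were the lowest of their groups for Gadd45b, Ppp1r15a and Gadd45g.

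Slc7a5 encodes the light chain of a transporter for large neutral amino acids, which works with the heavy chain Slc3a2. Its probe set, 1418326_at, read 110.1, 54.4 and 69.1 in wild type vehicle arrays and 131, 20.1 and 111 under TCDD. Human AHR cells read 94.7, 100.0 and 118 under vehicle and 78.7, 93.5 and 85.4 under TCDD. Human AHR TCDD arrays lay just below all vehicle arrays, and in wild type the TCDD array numbered 2 was the lowest of all 12. Slc7a5 had a log2 change of -0.05 in wild type (interval -0.95 to 0.84) and -0.24 in human AHR cells (interval -1.13 to 0.66). Without wild type TCDD replicate 2 the wild type change of Slc7a5 was 0.59 (limma adjusted p = 0.454), and without both wild type arrays numbered 2 it was 0.40. It was 0.18 without wild type vehicle replicate 1. The sign of this change reversed in 5 of 25 alternatives, so no direction was settled.
Of the other amino acid transporters 14 of 14 were measured and 0 passed, with medians of 0.09 (wild type) and 0.04 (human AHR). Slc3a2 stood at 0.27 and 0.05. The neutral amino acid carriers Slc38a2 and Slc1a4 stood at 0.45 and 0.30 in wild type, and at 0.03 and 0.12 in human AHR cells.

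Lgals3 encodes galectin-3, a lectin that binds galactosides on glycoproteins and is abundant in macrophages and in injured liver. Its probe set, 1426808_at, read 1628, 1780.4 and 2289.5 in wild type vehicle arrays and 1703, 1354 and 1489 under TCDD. Human AHR cells read 2183, 1987 and 2347 under vehicle and 2195, 2196 and 2559 under TCDD. The wild type TCDD arrays all lay below the vehicle mean of 1899 ± 346, and the human AHR TCDD arrays all lay above theirs of 2172 ± 180.4 (SD, n = 3), though the groups overlapped in both genotypes. Lgals3 had a log2 change of -0.31 in wild type (unadjusted p = 0.0499, limma adjusted p = 0.966) and 0.09 in human AHR cells (interval -0.22 to 0.41). The difference of these effects was 0.41 (interval -0.04 to 0.85, unadjusted p = 0.0699, limma adjusted p = 0.999), against 3.15% of all genes at an unadjusted p under 0.05 for the difference. Without wild type vehicle replicate 3, the highest of its group, the wild type change of Lgals3 was -0.17 and the difference 0.26. Without human AHR TCDD replicate 3 the human AHR change of Lgals3 was 0.019.
Kupffer cell and macrophage markers were measured for 15 of 15 genes, and their summed intensity ran from 3211 to 4309 in wild type vehicle arrays, 3307 to 5096 in wild type TCDD arrays, 3180 to 6529 in human AHR vehicle arrays and 2980 to 5978 in human AHR TCDD arrays. Most of it came from Cd68 and Cd14. With TCDD, 6 of the 15 lay above vehicle in wild type, 7 lay above it in human AHR cells, and 0 passed. Between the genotypes under vehicle, 14 of the 15 were higher in human AHR cells, with a median log2 difference of 1.13 beside 0.03 over all genes. Of these, 7 had an unadjusted limma p under 0.05, and 0 passed after adjustment. Over all genes 55.1% were higher in human AHR cells in that comparison, and 2.65% were higher at an unadjusted limma p under 0.05. C1qa, a complement gene of macrophages, read 4.2, 183 and 312 in human AHR vehicle arrays and 0.9, 1.4 and 25.8 in wild type vehicle arrays. In human AHR TCDD arrays it read 10.8, 169.7 and 281, so the arrays numbered 2 and 3 were high under both treatments. Clec4f, which defines Kupffer cells, read from 2.7 to 64.9, and Ptprc, Itgam and Timd4 averaged below the mean array median. These markers, like C1qa, were chosen after their values were seen. The part of macrophage RNA in the values of Lgals3, and of Msr1 below, was not tested, and in such bulk RNA fewer cells of a type and less RNA per cell cannot be told apart.
Of the other galectins 8 of 8 were measured and 0 passed, with medians of -0.16 (wild type) and 0.17 (human AHR). Lgals9 stood at -0.45 and -0.08, and Lgals2 and Lgals12, both dim, at 0.49 and 0.45 in wild type and 0.61 and 0.31 in human AHR cells.

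Fmo2 encodes a flavin-containing monooxygenase, an enzyme that oxygenates nitrogen and sulphur in foreign compounds and is best known from lung. All 5 of its probe sets were dim. The brightest, 1422904_at, read 26.8, 32.4 and 3.4 in wild type vehicle arrays and 25.2, 50.01 and 10.5 under TCDD. It read 32.1, 24.3 and 36.7 in human AHR vehicle arrays and 29.4, 34.5 and 7.7 under TCDD, and it was above the array median in 9 of 12 arrays. The groups overlapped in both genotypes. Fmo2 had a log2 change of 0.28 in wild type (interval -0.59 to 1.16) and -0.30 in human AHR cells (interval -1.18 to 0.57). Over the 5 probe sets it ran from -0.08 to 0.46 in wild type and from -0.30 to 0.24 in human AHR cells. Pearson correlations between them over the 12 arrays ran from -0.38 to 0.882. With the mean over the probe sets the human AHR change of Fmo2 was 0.0086.
Of the other flavin monooxygenases 3 of 4 were measured and 0 passed. Fmo5, the brightest of them, stood at -0.01 and 0.08, Fmo1 at 0.34 and -0.09, and Fmo4 at -0.14 and -0.03.

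Scara5 encodes a scavenger receptor that takes up ferritin. Both of its probe sets were below the array median in all 12 arrays. The brighter, 1431336_at, read 0.7, 2.2 and 8.5 in wild type vehicle arrays, 5.7, 10.8 and 1.8 in wild type TCDD arrays, 0.7, 1.3 and 21.0 in human AHR vehicle arrays and 1.7, 4.9 and 7.4 in human AHR TCDD arrays. At this brightness the offset of 16 added before log2 outweighs most values, and the log2 changes were 0.16 in wild type (interval -0.45 to 0.76) and -0.10 in human AHR cells (interval -0.71 to 0.50). The dimmer probe set, 1451204_at, read at most 1.00 in the wild type vehicle arrays and from 1.83 to 9.54 under TCDD, with a log2 change of 0.30. A response of Scara5 was not detectable at this signal.
Of the other scavenger receptors and iron genes 13 of 14 were measured and 0 passed, with medians of -0.03 and -0.01. Stab1, a scavenger receptor of endothelial cells and macrophages, stood at -0.29 and -0.16, and Scarb2, a lysosomal membrane protein, at -0.30 and -0.10. Msr1, a macrophage scavenger receptor of the same class as Scara5, read 1.9, 1.7 and 6.3 in human AHR vehicle arrays and 22.5, 26.2 and 26.7 under TCDD, a log2 change of 1.10 (limma adjusted p = 0.0662). In wild type Msr1 stood at 0.02, with TCDD arrays at 7.08, 1.56 and 3.87. Its intensities, at most 26.7, lay near or below the array medians.

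**Figure D3:**
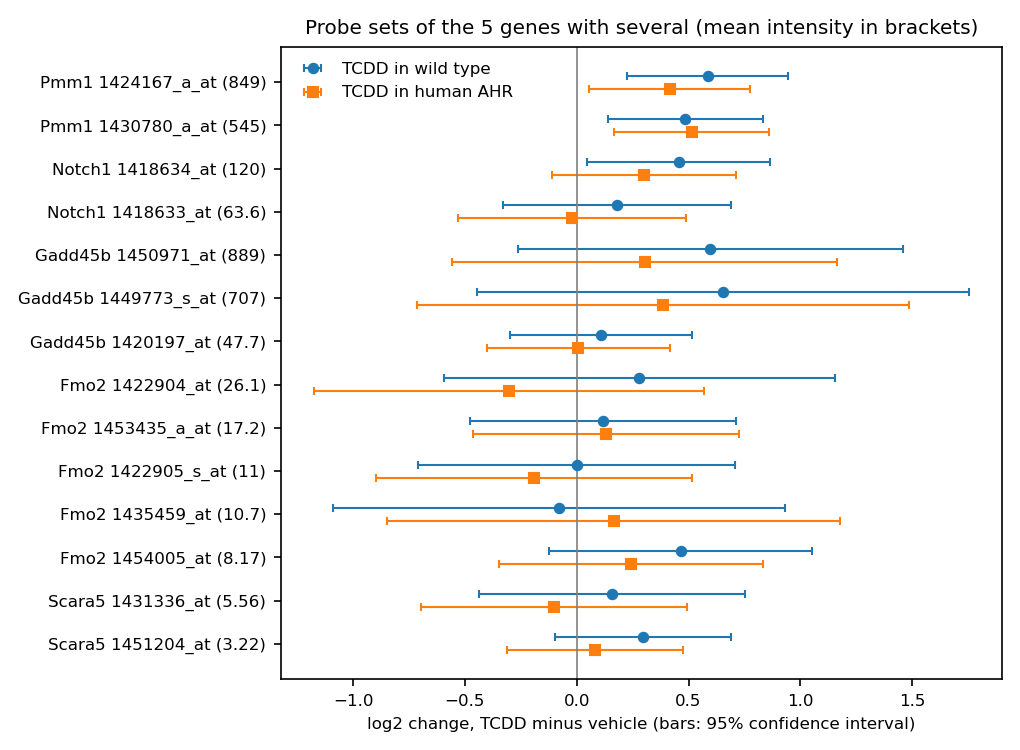
Log2 change of TCDD against vehicle (horizontal axis) with 95% confidence intervals for the 14 probe sets of the 5 genes with several, each labelled with its mean intensity over the 12 arrays, in wild type and human AHR cells. Both Pmm1 probe sets lie above 0 in each genotype, and the dimmer Notch1 probe set and the dimmest Gadd45b probe set lie nearer 0 than the brightest of their gene.

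The 8 measured members followed different patterns over the arrays. Over the 12 arrays, which share their scaling, the highest correlation between members was that of Pmm1 and Notch1 (r = 0.748, rho = 0.636) and the lowest that of Xdh and Slc7a5 (r = -0.482, rho = -0.196). Gadd45b and Slc7a5 correlated with r = 0.671 (rho = 0.622) and Xdh and Notch1 with r = 0.645 (rho = 0.692). Xdh and Pmm1, the members whose intervals lay above 0 in both genotypes, correlated with r = 0.442 (rho = 0.476). In wild type TCDD cells Xdh was highest in the array numbered 2 and Pmm1 in the array numbered 3.
The genes most like each member were sought by Pearson r over the 12 arrays among genes with a mean intensity of at least 50. With 8727 genes compared over so few arrays, high values arise for any gene, and these are descriptions only. Xdh was most like Lpin2, a phosphatidate phosphatase (r = 0.881, rho = 0.930), and Hpgd, the prostaglandin dehydrogenase (r = 0.877, rho = 0.776). Lpin2 had log2 changes of 0.67 (wild type) and 0.59 (human AHR), and Hpgd stood at 0.58 and 1.43. Pmm1 was most like Zfp275 (r = 0.919, rho = 0.860) and Clk3 (r = 0.918, rho = 0.853), and Notch1 like Zcchc14 (r = 0.907, rho = 0.776) and Csnk1d (r = 0.885, rho = 0.860). Gadd45b was most like Inip (r = 0.968, rho = 0.937) and Stk17b (r = 0.964, rho = 0.888), and Slc7a5 like Lrrfip2 (r = 0.935, rho = 0.846) and Acsm1 (r = 0.927, rho = 0.825). Lgals3 was most like Eng, an endothelial receptor (r = 0.903, rho = 0.888), and Xpo1 (r = 0.900, rho = 0.804). Of the dim members, Fmo2 was most like Xrn1 (r = 0.888, rho = 0.762) and Setdb1 (r = 0.862, rho = 0.769), and Scara5 like Stau2 (r = 0.861, rho = 0.846) and Stn1 (r = 0.854, rho = 0.713).

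Beside the members, 15 of 18 other AHR target genes were measured. In the main fit Tiparp passed in both genotypes and Cyp1a1 in human AHR cells. Of the 26 alternatives for wild type, 11 called any gene. Above vehicle lay 13 of the 15 in wild type, against 10 of 15 with the human receptor. The median log2 change of these targets was 0.41 in wild type and 0.17 in human AHR cells, beside the members' 0.37 and 0.20. Nfe2l2, which encodes the antioxidant regulator NRF2, had the smallest p of the rest for the mean of the genotypes, and stood at 0.45 in wild type and 0.60 in human AHR cells (limma adjusted p = 0.966 and 1). For the mean of the genotypes, Xdh stood at 0.61 and Pmm1 at 0.50, beside 0.53 for Nfe2l2 and 1.34 for Tiparp.

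**Figure D4:**
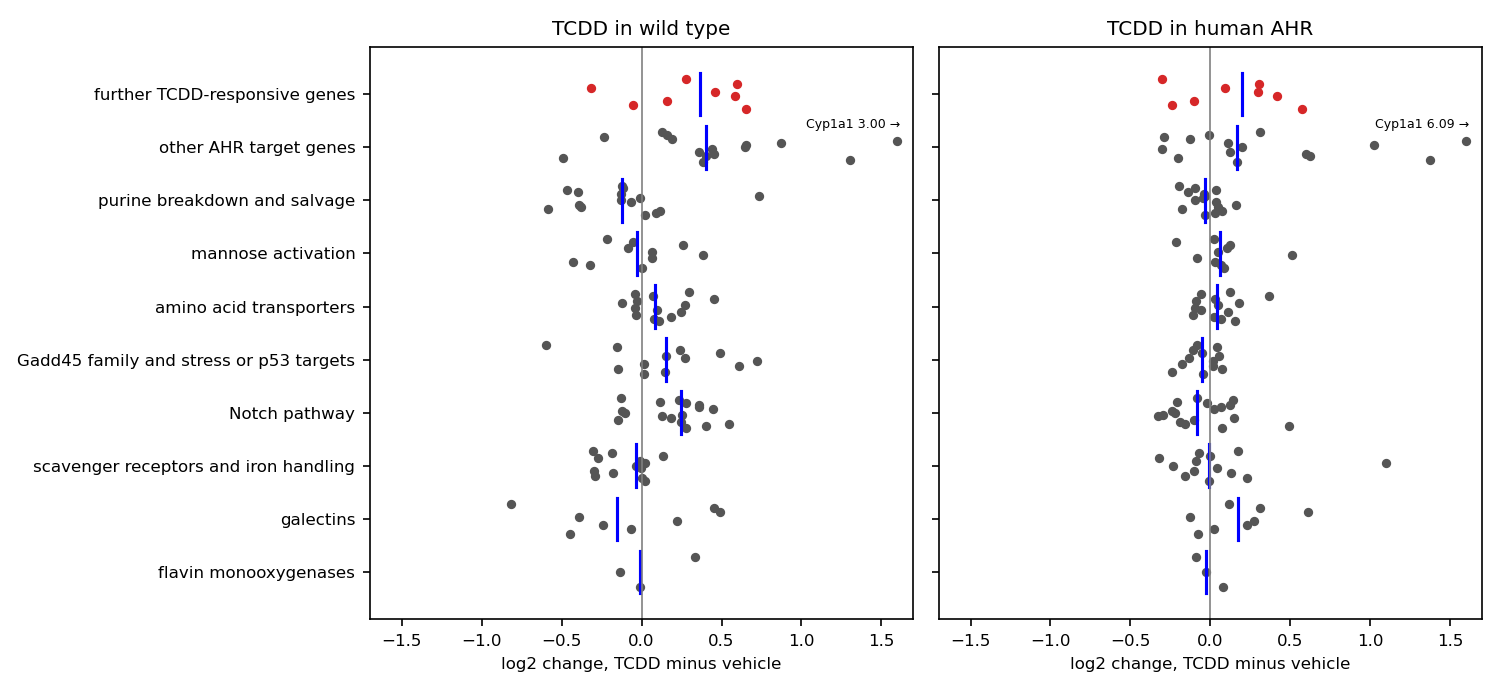
Log2 change of TCDD against vehicle (horizontal axis) of each measured gene of 10 lists in wild type (left) and human AHR cells (right), with the list's median as a blue line and the 8 members described here in red. Cyp1a1 lies beyond the axis and is drawn at its edge with its value, 3.00 and 6.09. The members' medians of 0.37 and 0.20 lie close to those of the other AHR targets, 0.41 and 0.17.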

How the data were processed

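The 12 Affymetrix arrays were grouped by their sample titles. The submitters' processing notes name PLIER-MM, Affymetrix Expression Console 1.1 and SAM. The deposited values are linear intensity values, and precision is limited by having 3 arrays a group. The mean after trimming 2% at each end was 150 on 9 arrays and 500 on the 3 wild type TCDD arrays, a scaling not given in the sources used here. All arrays were rescaled to 150.

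Of 45101 probe sets, 64 controls, 932 with several symbols and 9160 with no listed symbol were left out. The brightest probe set stood for each of 18193 genes. limma 3.58.1 (R 4.3.3) fitted log2(intensity + 16) with 4 group means and 8 residual degrees of freedom. It used eBayes with an intensity trend, two-sided tests, and Benjamini-Hochberg adjustment over all genes with a threshold of 0.05. The fit was tested on simulated data. The p-values set each change against the spread between arrays within the 4 groups, with the arrays taken as independent.

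Alternatives were offsets of 1 and 50, quantile or median scaling, a filter that leaves out the dimmest 40%, no trend, weighted arrays, fits on 6 arrays, other uses of probe sets, replicate blocks, SAM over 20 relabellings, and leaving out arrays. The members and lists were chosen with earlier results of these data known. Named genes were all members, up to 3 genes per list of smallest p for the mean of the genotypes, genes called over all genes, up to 4 bright genes per marker list, the most correlated 2 genes of each member, Tiparp and Cyp1a1. Others are named in the text as chosen after their values were seen.

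Deviations of same-numbered vehicle and TCDD arrays from their group means correlated with r from 0.191 to 0.265 in human AHR cells and from 0.0485 to 0.508 in wild type. The value of 0.508 was that of the wild type arrays numbered 2, both with the pattern of female cells. Whether they came from the same mouse was not tested. In human AHR cells, and not in wild type, every same-numbered value exceeded all values between different numbers. The numbers thus met the pairing check only in human AHR cells. The main fit used no pairs in either genotype, so its p-values ignore any pairing. The block within genotype used the numbers as pairs in both. The pairing in human AHR cells comes from the values, since the design text gives each array a mouse of its own. Python 3.11.15 and matplotlib 3.10.9 drew the plots.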

Additional observations from a re-analysis of the deposited data

Results flagged for a closer look

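Lgals3 was the member whose TCDD arrays all lay on opposite sides of the vehicle mean in the 2 genotypes, below it in wild type (log2 change -0.31) and above it in human AHR cells (0.09). The difference, human AHR minus wild type, was 0.41 on the log2 scale and did not pass limma's test (adjusted p = 0.999). The Lgals3 difference was 0.26 without wild type vehicle replicate 3, and the human AHR change was 0.019 without human AHR TCDD replicate 3. Groups of 3 arrays are too small for a search for outlying arrays within a group.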

How the results depend on the processing

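With 3 arrays a group, effects of the size seen for the members did not pass the adjustment over all genes. Outside the mean of the genotypes, no member passed in any comparison (0 in every alternative run). The changes of Xdh, Pmm1, Gadd45b and Notch1 with TCDD kept a positive sign in both genotypes in every alternative, and Lgals3 kept its sign. Scara5 has no value with the dimmest 40% left out. The cause of the values below was not tested.

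With a replicate block within genotype, 1 member passed for the mean of the genotypes, Xdh (log2 change 0.61, limma adjusted p = 0.0181, lowest of its alternatives). The same block gave Xdh an adjusted p of 0.241 for wild type and 0.284 for human AHR hepatocytes, and changed no other member's call. The wild type numbers did not meet the pairing check as a set, so this call rests partly on numbers alone.

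Genes called for TCDD in wild type (1) became 0 with no trend, with only the arrays compared, with a replicate block over both genotypes, without both wild type arrays numbered 2 and with SAM, and 2 with array weights or every probe set tested. In human AHR cells (4) they became 2 with quantile scaling or no trend, 1 with the mean over probe sets and 7 with SAM. The mean of the genotypes (4) became 1 with the mean over probe sets, the difference (0) became 1 without both wild type arrays numbered 2, and the vehicle comparison (2) became 4 with the offset of 50 or array weights. Leaving out each array gave 0 to 1, 0 to 6, 2 to 5, 0 to 1 and 1 to 3 genes, in the order wild type, human AHR, mean, difference and vehicle. Leaving out a human AHR array, whichever it was, left 0 genes called in wild type. Of the 26 alternatives for wild type, 11 called any gene.

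Reversed log2 changes were as follows. In wild type, Slc7a5 stood at 0.013 with the offset of 50, 0.41 with array weights and 0.40 without both arrays numbered 2, and Scara5 at -0.043 without those. In human AHR cells, Scara5 stood at 0.21 with the offset of 1, and Fmo2 at 0.0086 with the mean over probe sets. For the mean of the genotypes, Fmo2 stood at 0.026 with the offset of 1, 0.035 with array weights and 0.083 with the mean over probe sets. There Scara5 stood at -0.00022 with the offset of 50 and -0.072 without both wild type arrays numbered 2, and Slc7a5 at 0.086 with array weights and 0.081 without those arrays. The Xdh difference was 0.027 with a shared median. Under vehicle, Notch1 stood at -0.0088 with a shared median, Xdh at 0.043 with array weights and 0.16 without both wild type arrays numbered 2, and Fmo2 at -0.11 with the mean over probe sets.

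Leaving out each array reversed dim or scattered members. Slc7a5 ran from -0.43 to 0.59 and Fmo2 from -0.13 to 0.61 in wild type, and Scara5 from -0.30 to 0.27 and Fmo2 from -0.51 to 0.03 in human AHR cells. For the mean of the genotypes, Slc7a5 ran from -0.33 to 0.17, Scara5 from -0.072 to 0.22 and Fmo2 from -0.22 to 0.16. For the difference, Xdh ran from -0.33 to 0.16, Slc7a5 from -0.82 to 0.19, Gadd45b from -0.82 to 0.27, Notch1 from -0.27 to 0.0095 and Scara5 from -0.46 to 0.11. Under vehicle, Xdh ran from -0.21 to 0.16, Notch1 from -0.13 to 0.12 and Scara5 from -0.20 to 0.37.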
